A study of Mus musculus with 16 samples.

Results

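The 10 genes described here are 7 matrix metalloproteases (Mmp2, Mmp3, Mmp9, Mmp12, Mmp13, Mmp14 and Mmp19) and 3 tissue inhibitors of metalloproteases (Timp1, Timp2 and Timp3). They were taken by symbol from the probes that carry a RefSeq identifier, and are 10 of 16535 named genes, with 13 of 41174 probes. All 10 passed the filter on dim probes, as did 12298 genes in all. The data come from 16 2-colour Agilent arrays of mouse transcripts. The infiltrating fraction (TIC in the labels, 8 samples) was prepared from mashed tumours on a density gradient and is enriched for inflammatory cells. Blood of the tumour-bearing mice gave another 8 samples. Both came from mice that the treatment text calls C57Bl/6 athymic and the strain field C57Bl/6, with the sex given as female and no age given, 10 days after cells of Hepa1-6, a mouse hepatoma line, were placed under the skin. On every array the sample was in Cy5, and blood RNA of untreated female C57Bl/6 mice, the reference, was in Cy3. Athymic mice lack the organ in which T cells mature. The same sample numbers occur in both groups. The labels do not say that samples came from separate mice, so p-values measure the spread between these samples.

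Matrix metalloproteases are zinc-dependent enzymes that are made as inactive precursors and cut collagens, elastin, proteoglycans and basement membrane proteins once their propeptide is removed. TIMPs bind the active site and hold the enzymes in check, and Timp2 also takes part in activating the Mmp2 precursor on the membrane protease Mmp14. In tumours these genes are made mostly by macrophages, neutrophils and fibroblasts, although tumour cells can make them too.

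The scanner program called 51.1% to 65.8% of probes well above background in Cy5 in the infiltrating fraction, against 24.8% to 36.3% in blood of tumour-bearing mice. The fraction was a mixture. The summed Cy5 signal of 9 macrophage markers was 70473 to 128557 units in it, against 3265 to 5130 units in blood of tumour-bearing mice, and that of 10 fibroblast markers was 254022 to 324694 units, against 8951 to 13241 units. For 7 hepatoma and hepatocyte markers it was 343525 to 707134 units, against 1129 to 2138 units, most of it from Afp (197304 to 373915 units) and Alb (130228 to 301829 units) in the fraction. Most of the fibroblast sum came from Dcn (176144 to 257452 units) in the fraction and from Thy1 (7462 to 12036 units) in blood. All 9 macrophage, 7 of the 10 fibroblast and 5 of the 7 hepatoma markers were well above background on all 8 arrays of the fraction, whereas Mrc1, C1qa, C1qc, Msr1, Mertk, Col3a1, Lum, Pdgfra, Pdgfrb, Postn, Fap, Alb, Apoa1, Igf2 and Dlk1 were so on no blood array. The 9 neutrophil markers summed to 22144 to 97269 units in the fraction, against 274847 to 600271 units in blood. The 6 platelet markers summed to 19546 to 34296 units in the fraction, against 474333 to 791663 units in blood, and the 4 B cell markers to 1522 to 2267 units, against 30833 to 58167 units. In Cy5 alone, by the rule for calls given below, 7 of 9 macrophage markers were higher in the fraction than in blood and 0 lower, as were 6 and 1 of 10 fibroblast and 5 and 2 of 7 hepatoma markers (Ahsg and Dlk1 lower). By the same rule 8 of 9 neutrophil, 6 of 6 erythroid, 6 of 6 platelet and 4 of 4 B cell markers were lower and 0 higher. Of the markers called lower, the fibroblast marker Fap, Dlk1 and the neutrophil marker Mpo were well above background on no blood array. They were so on 5, 4 and 6 arrays of the fraction, so these 3 calls do not show more signal in blood. The tested Cy5 signals had the 75th percentile of each array taken off, and in them 33.1% of all genes were higher and 27.3% lower. The 3 T cell markers tested were well above background on all arrays of both groups. Cd3e was lower in the fraction, at 145 to 302 units, against 562 to 1097 units in blood, and Cd3d and Cd3g, which carried most of the sum of 8638 to 29510 units in the fraction, against 5846 to 8568 units in blood, were not called. Which of these cells carried the metalloprotease signals was not tested, and fewer cells of a type and less RNA per cell cannot be told apart in such bulk samples.

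The Cy3 channel went against its label. The labels give the same reference for all arrays, yet its Cy3 signal correlated at 0.97 to 0.99 between arrays of the infiltrating fraction, at 0.97 to 0.99 between blood arrays and at 0.88 to 0.92 between an array of the fraction and a blood array. In Cy3, 741 probes (1.8%) were well above background on all 8 arrays of the fraction and no blood array, and 23 probes (0.0559%) the other way round. The hepatoma markers summed to 75831 to 181745 units in Cy3 on arrays of the fraction, against 1290 to 1853 units on blood arrays. Y-linked genes read 4174 to 4844 units and 2643 to 3613 units in Cy3 on the same arrays, although the labels call the reference female, and none was well above background in Cy5. The cause was not tested. A ratio of Cy5 over Cy3 therefore stands against an untreated-blood reference only as the labels name it. The difference of the ratios between the groups mixes differences in Cy5 with differences in Cy3. It is not a contrast of the fraction with blood alone. Both channels are given below for each of the 10 genes.

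Mmp13, Mmp12 and Mmp3 lie in this order on chromosome 9, with Mmp1b between Mmp12 and Mmp3 in the RefSeq gene order, in a cluster of 10 metalloprotease genes. Windows of 300 bases, from 250 before to 50 after an annotated start, were found for 7 of the 10 genes in the RefSeq table of build GRCm38.p6, and Mmp2, Mmp9 and Mmp19 were not among them. The windows were searched on both strands for TGANTCA (the letters bound by AP-1, a pair of Fos and Jun proteins), TATAAA and AGGAAG (the letters of the PEA3 motif, bound by Ets factors). Of all 32851 windows, 7.81% held the AP-1 letters, 13.6% TATAAA, 35.4% AGGAAG and 1.54% both AP-1 letters and TATAAA. Mmp13, Mmp3 and the second of the windows of Mmp12 held both, and the windows of Mmp14, Timp1, Timp2 and Timp3 and the first of Mmp12 held neither. A match is a run of letters, not a bound site. The windows with both are printed because 3 neighbours in the cluster share these letters, and that of Mmp14 as a called gene of another chromosome without AP-1 letters or TATAAA. Capitals mark the AP-1 letters, TATAAA and AGGAAG, in either orientation, and all 4 windows lie on the plus strand.
Mmp13, chr9:7272264-7272563: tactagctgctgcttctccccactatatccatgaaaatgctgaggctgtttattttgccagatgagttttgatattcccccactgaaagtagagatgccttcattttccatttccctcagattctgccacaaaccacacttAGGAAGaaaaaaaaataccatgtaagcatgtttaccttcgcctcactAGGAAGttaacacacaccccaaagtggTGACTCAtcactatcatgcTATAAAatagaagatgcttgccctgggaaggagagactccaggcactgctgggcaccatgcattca
Mmp12, chr9:7347124-7347423: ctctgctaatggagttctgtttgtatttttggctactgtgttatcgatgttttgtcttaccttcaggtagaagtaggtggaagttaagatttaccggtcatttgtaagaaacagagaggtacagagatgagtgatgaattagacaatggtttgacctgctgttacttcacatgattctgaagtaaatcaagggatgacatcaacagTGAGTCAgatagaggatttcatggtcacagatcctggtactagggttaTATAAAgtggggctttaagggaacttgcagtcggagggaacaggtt
Mmp3, chr9:7445572-7445871: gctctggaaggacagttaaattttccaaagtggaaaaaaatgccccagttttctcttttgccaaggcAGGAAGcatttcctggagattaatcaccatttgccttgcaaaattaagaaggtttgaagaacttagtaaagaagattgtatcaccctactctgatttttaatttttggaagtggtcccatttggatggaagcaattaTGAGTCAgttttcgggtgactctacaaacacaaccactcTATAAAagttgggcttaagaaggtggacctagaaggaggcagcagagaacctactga
Mmp14, chr14:54431348-54431647: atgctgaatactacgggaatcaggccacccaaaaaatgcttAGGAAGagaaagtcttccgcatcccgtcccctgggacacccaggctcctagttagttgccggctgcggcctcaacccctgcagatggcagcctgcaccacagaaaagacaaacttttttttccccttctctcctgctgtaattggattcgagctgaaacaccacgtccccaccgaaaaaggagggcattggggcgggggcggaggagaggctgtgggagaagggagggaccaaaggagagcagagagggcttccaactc
Counting the annotated start as 0, the AP-1 letters began at -35 in Mmp13, -44 in Mmp12 and -46 in Mmp3, and TATAAA at -16, 4 and -7 in the same genes. AGGAAG began at -109 and -62 in Mmp13, -183 in Mmp3 and -209 in Mmp14, and was absent from the window of Mmp12 shown.

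Against the reference, 5 of the 10 genes were higher in the infiltrating fraction and 0 lower, and in blood of tumour-bearing mice 0 of 10 passed the test in either direction. A gene was called at a limma adjusted p under 0.05 over all probes with a change of at least 2-fold. Of all tested genes, 9.33% were higher and 10.1% lower in the fraction by this rule, and 0.504% and 0.244% in blood. The genes that rose in the fraction were Mmp14, Mmp13, Timp2, Timp3 and Mmp12. The members' median log2 ratio was 0.82 in the fraction and 0.04 in blood, against 0.05 and -0.02 over all genes. The difference of the groups (infiltrating fraction minus blood) passed the test in 6 genes, with the same 5 higher and Mmp9 lower, where 12.1% of all genes were higher and 11.8% lower. The ratios of those 5 genes did not overlap between the groups, as was so for 24.8% of all genes in this direction. Mmp2, Mmp3, Mmp12 and Mmp13 passed the filter on dim probes only through arrays of the fraction, and their blood ratios come from spots at background in both channels. Their p-values for the difference therefore do not measure a change from a measured blood ratio. In Cy5 Mmp14 was well above background on no blood array either. The blood count of 0 of 10 and the blood median thus rest in part on dim spots. The split of the difference became 7 higher and 0 lower when each array was centred on its median in place of loess, and 6 and 0 when it was centred on the spike-in controls. These centrings moved the median difference of all genes to 1.46 and 1.13, from which their values must be read, and with the ratios as deposited it was 0.42.

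**Figure D1:**
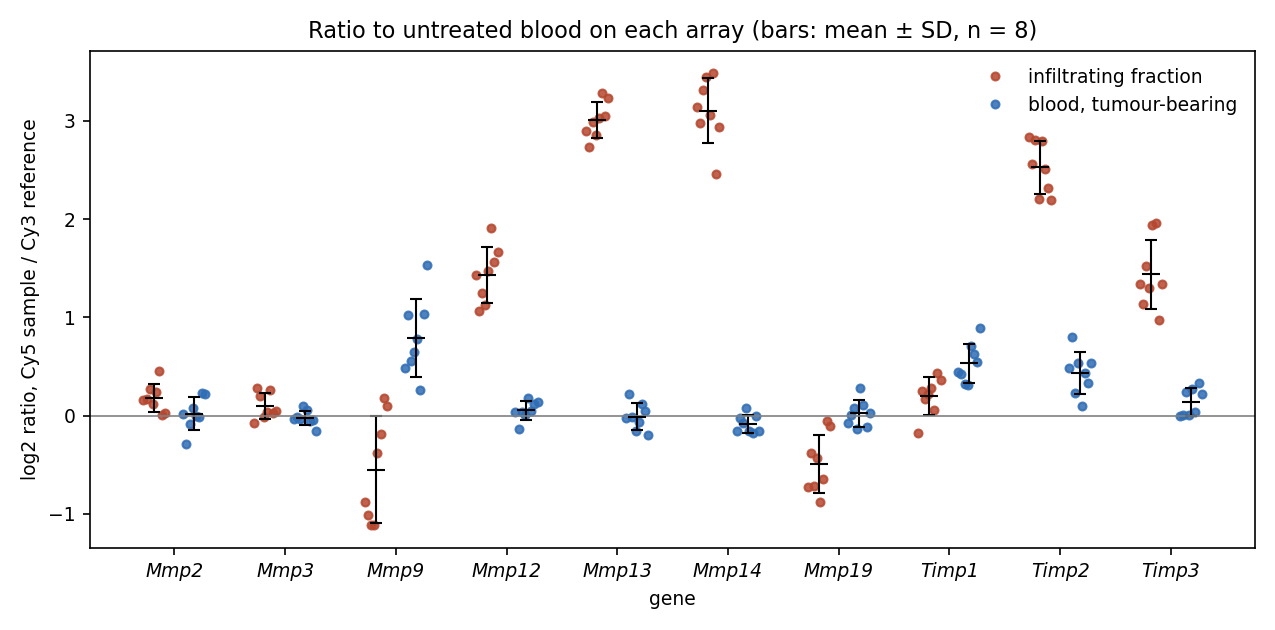
Log2 ratio of Cy5 sample over Cy3 reference on each of the 16 arrays (points), for the infiltrating fraction at the left of each gene and blood of tumour-bearing mice at the right, with mean and SD as bars (n = 8 each). The points of the fraction lie wholly above those of blood for Mmp12, Mmp13, Mmp14, Timp2 and Timp3 and wholly below for Mmp9.

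Mmp13, collagenase 3, the main enzyme for fibrillar collagen in mice, rose in the fraction against the reference and against blood. Its Cy5 signal in the infiltrating fraction was 17874 at the lowest, 30369 at the median and 61684 units at the highest, against 24.9, 38.8 and 112 units in blood of tumour-bearing mice, where it was well above background on 0 of 8 arrays. The groups lay far apart with no overlap in these unscaled signals, in which 65.9% of all genes were called higher in the fraction. With the 75th percentile of each array taken off, 36.7% of all genes had no overlap in this direction in Cy5. After loess and scaling of each channel between arrays the fraction was at least 40.1-fold brighter than blood, a bound set by the dimmest signals well above background and open to dye bias, since no dyes were swapped. The log2 ratio to the reference was 3.01 ± 0.06 in the fraction (SE, n = 8; limma adjusted p = 1.99e-10), with all 8 arrays between 2.74 and 3.28. The reference itself read 1280 to 7028 units in Cy3 on these arrays, against 49.9 to 67.5 units on blood arrays, where it was not well above background. In blood neither channel measured Mmp13, so its ratio of -0.01 ± 0.05 there is a ratio of 2 dim spots, and the fitted difference of 3.02 ± 0.08 (limma adjusted p = 5.92e-16) rests on it.

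Mmp12, the macrophage elastase, was likewise measured in the fraction and not in blood. Its Cy5 signal was 6137, 9518 and 20024 units (lowest, median, highest) in the fraction, against 23.4, 26.7 and 29.9 units in blood, where no array was well above background. There was no overlap, and the bound was at least 14.7-fold. Its log2 ratio was 1.44 ± 0.09 in the fraction (SE, n = 8; limma adjusted p = 4.99e-07), from 1.07 to 1.91. Its Cy3 signal of 1206 to 7436 units on arrays of the fraction, against 16.8 to 23.3 units on blood arrays, was at least 5.71-fold brighter, and that of Mmp13 at least 5.03-fold. In blood neither channel measured Mmp12 either, so its log2 ratio of 0.05 ± 0.04 there is again a ratio of dim spots. The fitted difference of the groups, 1.38 ± 0.10 (limma adjusted p = 1.21e-09), rests on that ratio. It became -0.08 ± 0.56 when background was subtracted with a floor, the only alternative that turned its direction.

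Mmp3, stromelysin 1, which cuts proteoglycans and can activate collagenase precursors, was close to background and not called. It read 26.0 to 219 units in Cy5 in the fraction, well above background on 6 of 8 arrays, against 16 to 28.7 units in blood, on 0 of 8. The ranges overlapped in the array of sample 893 of the fraction. In Cy3 it read 10.2 to 53.3 units on arrays of the fraction and 13.9 to 34.1 units on blood arrays, and no array was well above background. The bound was at least 1.09-fold, and the difference of the ratios, 0.12 ± 0.06, did not pass the test (limma adjusted p = 0.0894).

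Mmp14, the membrane-type protease that activates Mmp2, rose in the fraction against the reference and against blood. Its Cy5 signal was 11313, 18405 and 23312 units (lowest, median, highest) in the fraction, against 25.6, 32.2 and 70.7 units in blood, and was at least 21.5-fold brighter. No blood array reached the lowest array of the fraction, and none was well above background. The log2 ratio was 3.1 ± 0.10 in the fraction (SE, n = 8; limma adjusted p = 4.26e-09), from 2.46 to 3.48, and the difference of the groups was 3.19 ± 0.11 (limma adjusted p = 3.7e-14). The reference was measured on all 16 arrays, with 818 to 1953 units in Cy3 on arrays of the fraction and 90.0 to 124 units on blood arrays. In blood the log2 ratio was -0.08 ± 0.04, a bound of at least 1.05-fold in favour of the reference, and -1.5 ± 0.16 in the ratios as deposited (limma adjusted p = 0.000145). A second, dimmer probe of Mmp14 read 620 to 1234 units in the fraction, against 30.5 to 223 units in blood, and its difference of 0.59 ± 0.12 was in the same direction but under 2-fold. With the mean of both probes the ratio in the fraction was 1.89, still called.

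Mmp2, gelatinase A, which Mmp14 activates together with Timp2, was close to background. It read 30.3 to 85.1 units in Cy5 in the fraction, on 5 of 8 arrays well above background, against 18.7 to 35.1 units in blood, on 0 of 8. The groups overlapped. In Cy3 it read 11.7 to 17.5 units on arrays of the fraction and 15 to 35.4 units on blood arrays, with none well above background. Its direction depended on the scaling. The bound was at least 1.07-fold in favour of the fraction, and the difference of the ratios, 0.16 ± 0.08, did not pass the test (limma adjusted p = 0.0774). In Cy5 alone with the 75th percentile of each array taken off it was -0.48 ± 0.23, also not called (limma adjusted p = 0.062), and with quantile normalization of Cy5 it was called at 1.28 ± 0.20. With the ratios as deposited, Mmp2 and Mmp3 were called higher in the fraction by 2.01 ± 0.20 and 2.19 ± 0.29, and their blood ratios again stem from spots that were not well above background.

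Mmp9, gelatinase B, an enzyme that neutrophils store in granules, was brighter in the fraction than in blood in Cy5 before scaling and lower by the ratio. Its Cy5 signal was 4428, 7280 and 12561 units (lowest, median, highest) in the fraction, against 1226, 1613 and 2677 units in blood, so every array of the fraction was above every blood array. In these unscaled signals Mmp9 differed by 2.11 log2, where the median of all genes was 1.83 and 65.9% of all genes were called higher. In Cy3 the contrast was wider, with 7187 to 16600 units on arrays of the fraction and 582 to 693 units on blood arrays. The log2 ratio was therefore below 0 on 6 of 8 arrays of the fraction, at -0.55 ± 0.17 (SE, n = 8; limma adjusted p = 0.013), and above 0 on all 8 blood arrays, at 0.79 ± 0.10 (limma adjusted p = 1.29e-05). Neither value reached 2-fold. In blood Mmp9 was called at 1.44 ± 0.14 with the ratios as deposited (limma adjusted p = 0.000113) and at 1.23 ± 0.16 when background was subtracted with a floor. The difference of the ratios was -1.34 ± 0.21 (limma adjusted p = 2.46e-05) with no overlap of the groups, as for 17.4% of all genes in this direction. It was 1.25 when arrays were centred on their median and 0.92 when they were centred on the spike-in controls, both under the shift of all genes given above, and 0.57 ± 0.23 in Cy5 alone with the 75th percentile of each array taken off (limma adjusted p = 0.0286), where the median of all genes was 0.30. A second probe had a difference of -0.81 ± 0.14, under 2-fold, and a ratio in the fraction of 0.09 ± 0.09 with overlapping groups.

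The slides also separated Mmp9. On the first slide of the fraction its log2 ratio lay between -1.12 and -0.89, and on the second between -0.38 and 0.18, so that it was called lower on the first slide alone (-1.03 ± 0.07, limma adjusted p = 2.91e-06) and not on the second (-0.07 ± 0.11). With the first slides alone the difference of the groups was -1.71 ± 0.12, and with the second slides alone -0.97 ± 0.25, which was no longer called (limma adjusted p = 0.0118). Mmp12 (1.07 to 1.43 and 1.47 to 1.91) and Mmp13 (2.74 to 2.98 and 3.03 to 3.28) had slides that did not overlap either, by smaller amounts, and kept their calls on each slide. Arrays of a group with the same scan date were taken as a slide, since the labels name no slides. Each slide so defined held 4 arrays of 1 group.

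Mmp19, a protease of basement membrane proteins, was dim in both groups. It read 45.3, 72.9 and 153 units (lowest, median, highest) in Cy5 in the fraction, against 45.1, 119 and 170 units in blood, where 2 of 8 arrays were well above background. The groups overlapped almost completely in these units. In Cy3 it read 158 to 285 units on arrays of the fraction, against 108 to 157 units on blood arrays, with no overlap before scaling. In these unscaled Cy3 signals the median of all genes was 1.16 log2 higher on arrays of the fraction, and 59.1% were called higher. With the 75th percentile of each array taken off, Mmp19 turned lower in Cy3. It was then at -0.62 ± 0.12 on arrays of the fraction against blood arrays, under 2-fold (limma adjusted p = 0.000184). Its log2 ratio was -0.49 ± 0.10 in the fraction and 0.02 ± 0.05 in blood, and the difference of -0.51 ± 0.11 did not reach 2-fold (limma adjusted p = 0.00047). It was called at -1.20 ± 0.25 with the ratios as deposited and at -1.39 ± 0.23 when background was subtracted with a floor.

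**Figure D2:**
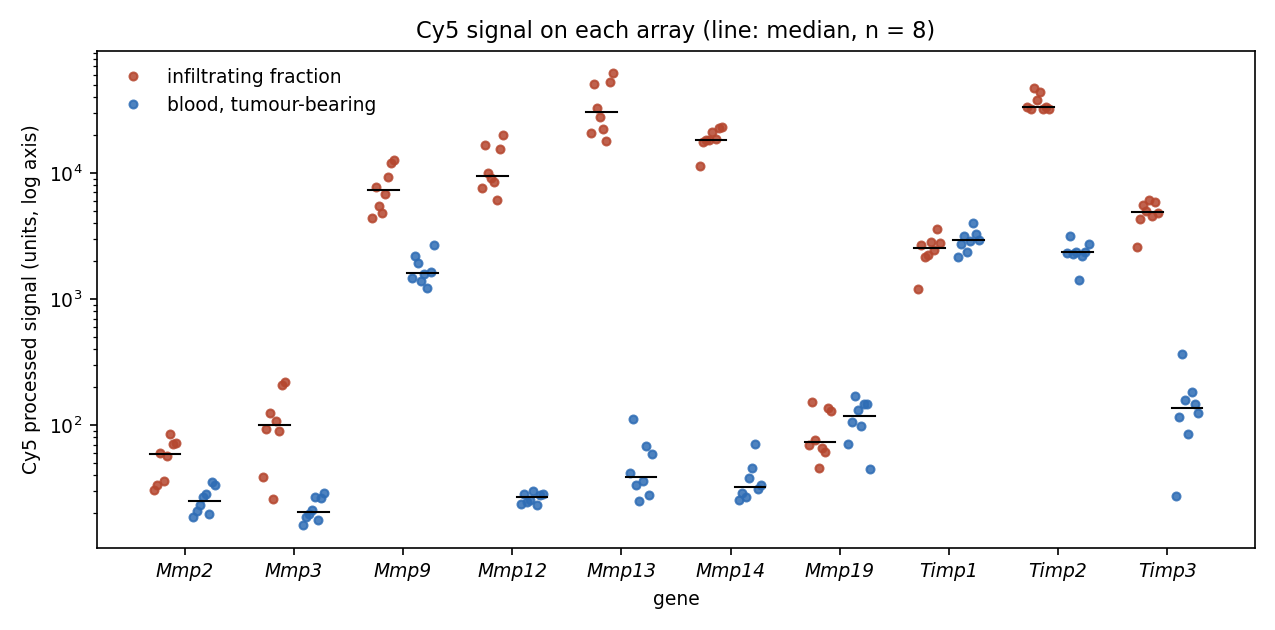
Cy5 processed signal of each gene on each array, on a log axis in units of the scanner program, for the infiltrating fraction at the left and blood of tumour-bearing mice at the right, with the median as a line (n = 8 each). Mmp12, Mmp13 and Mmp14 read 6137 units or more in the fraction and 112 units or less in blood, while Mmp19 and Timp1 overlap.

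Timp2, the inhibitor that also links the Mmp2 precursor to Mmp14, was measured on every array in both channels. Its Cy5 signal was 31975, 33360 and 47263 units (lowest, median, highest) in the fraction, against 1405, 2338 and 3141 units in blood. The groups did not overlap, and the 8 arrays of the fraction lay close together. The log2 ratio was 2.53 ± 0.09 in the fraction (SE, n = 8; limma adjusted p = 5.07e-09) and 0.43 ± 0.06 in blood (limma adjusted p = 3.95e-05), above 0 on all 8 arrays of each, with the blood value under 2-fold. The difference was 2.10 ± 0.11 (limma adjusted p = 1.65e-11). In Cy5 alone it was 2.44 ± 0.15, close to the value of the ratio, and the Cy3 signal differed by 0.49 ± 0.06, with 5098 to 7196 units on arrays of the fraction and 1378 to 1773 units on blood arrays before that scaling.

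Timp3, an inhibitor held in the matrix that also blocks ADAM proteases, was higher in the fraction by the ratio and in Cy5 alone. Its Cy5 signal was 2597, 4926 and 6045 units (lowest, median, highest) in the fraction, against 27.2, 136 and 367 units in blood, where 2 of 8 arrays were well above background. The groups did not overlap. The log2 ratio was 1.44 ± 0.11 in the fraction (SE, n = 8; limma adjusted p = 2.08e-06) and 0.14 ± 0.05 in blood (limma adjusted p = 0.0295), and the difference was 1.30 ± 0.12 (limma adjusted p = 4.85e-08). The reference read 671 to 1544 units in Cy3 on arrays of the fraction, against 89.7 to 141 units on blood arrays.

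Timp1, an inhibitor that binds the Mmp9 precursor, differed in direction between measures. Its brighter probe read 1204, 2548 and 3623 units (lowest, median, highest) in Cy5 in the fraction, against 2138, 2925 and 3972 units in blood, and the groups overlapped. In Cy3 it read 1531 to 2568 units on arrays of the fraction and 1294 to 2281 units on blood arrays. The log2 ratio was 0.20 ± 0.07 in the fraction and 0.53 ± 0.06 in blood (limma adjusted p = 3.07e-06), above 0 on all 8 blood arrays but under 2-fold. The difference of -0.33 ± 0.10 was not called, was called at -1.80 ± 0.15 in Cy5 alone (limma adjusted p = 3.35e-09), and was called in the opposite direction at 2.20 when arrays were centred on their median and 1.88 on the spike-in controls. A dimmer probe of Timp1 disagreed in Cy5, at 209 to 670 units in the fraction, against 16.4 to 28.1 units in blood, at least 1.78-fold brighter. Its 8 arrays of the fraction were all well above background and no blood array was.

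Read in Cy5 alone, with the 75th percentile of each array taken off, 5 of the 10 genes were higher in the fraction than in blood and 2 lower, where 33.1% of all genes were higher and 27.3% lower. The same 5 genes rose as by the ratio, with fitted differences of 7.98 for Mmp13, 7.5 for Mmp14, 7.16 for Mmp12, 3.73 for Timp3 and 2.44 for Timp2, of which the first 3 stand against blood signals at background and are no fold changes. Mmp19 (-1.86 ± 0.26) and Timp1 by its brighter probe (-1.80 ± 0.15) were lower, although both overlapped between the groups before that scaling. Mmp19 and Timp3 were well above background on only 2 of 8 blood arrays in Cy5. Their values thus rest largely on dim blood spots and are no fold changes either. The dimmer probe of Timp1 was called higher in the same fit, at 2.90 ± 0.19, against blood signals at background. With spike-in scaling of Cy5 the directions of Mmp19 and of the brighter Timp1 probe turned, to 1.20 and 1.25, where the median of all genes was 3.35. In Cy3, which the labels give as one reference, 8 of the 10 genes differed between arrays of the fraction and blood arrays by the same rule, where 14.2% of all genes were higher and 21.2% lower. Mmp12 (5.97), Mmp13 (4.35), Mmp9 (2.65), Mmp14 (2.45) and Timp3 (1.81) were higher on arrays of the fraction, and Timp1 (-1.18), Mmp3 (-1.53) and Mmp2 (-2.18) lower. For Mmp2 and Mmp3 no array was well above background in Cy3, and the direction of Mmp3 turned with quantile normalization and that of Timp1 with the signals as deposited.

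**Figure D3:**
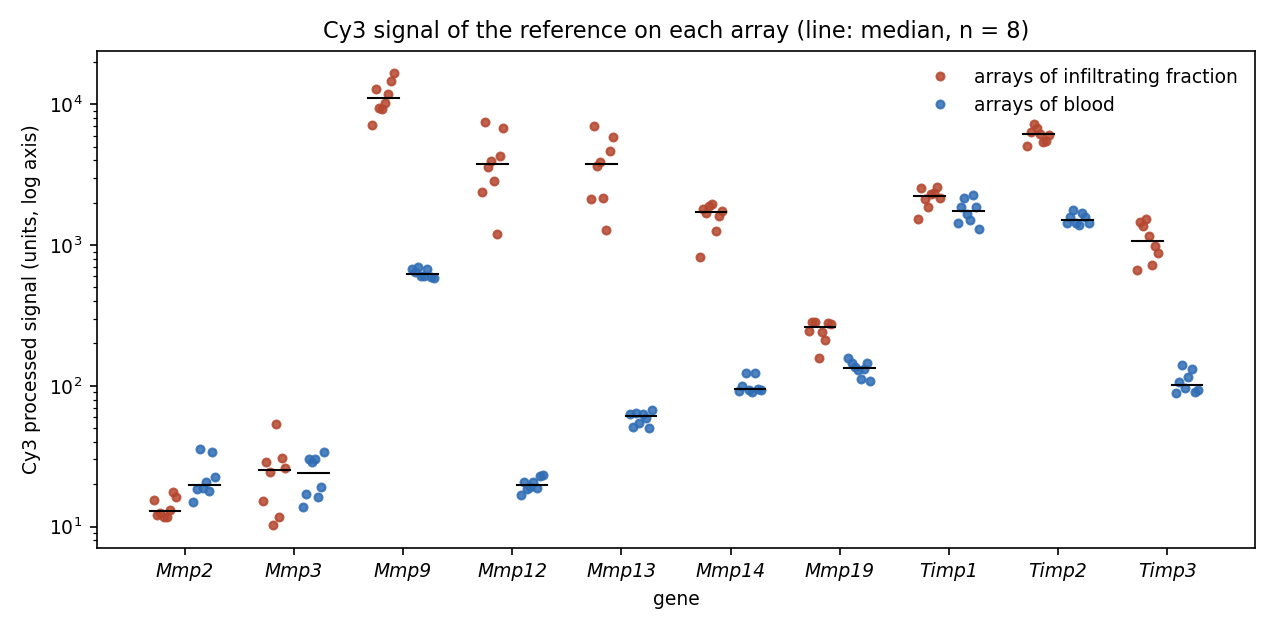
Cy3 processed signal of the reference on each array, on a log axis in units of the scanner program, for arrays of the infiltrating fraction at the left and blood arrays at the right, with the median as a line (n = 8 each). Mmp9 read 7187 to 16600 units on arrays of the fraction and 582 to 693 units on blood arrays, and Mmp12 1206 to 7436 units and 16.8 to 23.3 units.

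Within the infiltrating fraction, Mmp12 and Mmp13 varied together. Across the 8 samples their log2 Cy5 signals, with the 75th percentile of each array taken off, had Pearson's r = 0.983 (exact permutation p = 0.000198, adjusted p = 0.00556 over 28 pairs of 8 genes) and Spearman's rho = 0.929 (exact permutation p = 0.00223, adjusted p = 0.0625), two-sided. Without the 2 samples farthest from the median of Mmp12 r was 0.967, and with slide means removed it was 0.983. Before that scaling, samples 890, 897 and 898 were the highest of both genes and 896 the lowest, in Cy3 as in Cy5. The 3 high samples stood apart from the other 5, and neither set is large enough for a value of its own. One other pair passed the same threshold, Mmp14 with Timp1 (r = 0.89, exact permutation p = 0.0034, adjusted p = 0.0476; rho = 0.81, exact permutation p = 0.0218, adjusted p = 0.203). Its r was 0.64 without the 2 farthest samples and 0.77 with slide means removed, so its size rests in part on the farthest samples. Before scaling, sample 889 was the lowest of both genes.

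**Figure D4:**
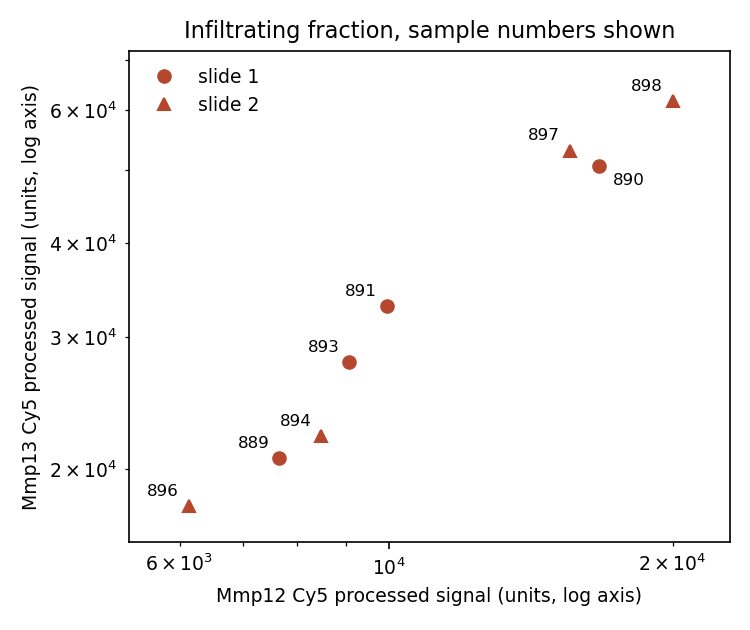
Cy5 processed signal of Mmp12 (x axis) and Mmp13 (y axis) in the 8 samples of the infiltrating fraction, both on log axes in units of the scanner program, with sample numbers beside the points and a symbol for each slide. Both genes run from their lowest values in sample 896 (6137 and 17874 units) to their highest in sample 898 (20024 and 61684 units).

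Other genes with a like pattern were ranked by the root mean square difference of their log2 ratios over the 16 arrays, among 12269 genes. For Mmp12 and Mmp13 the blood ratios come from spots at background, so on blood arrays any gene with a ratio near 0 lies close to them. Nearest to Mmp13 were Afp, the fetal albumin made by hepatomas (0.21 log2), and Rgs1, a regulator of G protein signalling (0.28). Nearest to Mmp12 were Socs1, an inhibitor of cytokine signalling (0.15), and Stmn1, a tubulin-binding protein (0.16). Mmp14 lay closest to Anxa3, an annexin (0.22), and Enpp2, which makes lysophosphatidic acid (0.24). Timp2 lay closest to Cxcr6, a chemokine receptor (0.29), and Txn1, a thioredoxin (0.31), and Timp3 to Dab2ip (0.20) and Abcc2, a transporter of conjugates into bile (0.21). Mmp9, with its negative ratio in the fraction and positive ratio in blood, lay closest to Mcemp1 (0.30) and Tnfaip2 (0.32), whose ratios were -0.63 and -0.58 in the fraction, against 0.70 and 0.60 in blood.

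Of 17 other metalloproteases and inhibitors, 9 were tested, and against the reference 0 were higher and 1 lower in the fraction, while 1 was higher and 0 lower in blood. Of all genes, 9.33% were higher and 10.1% lower in the fraction, and 0.504% and 0.244% in blood. Mmp17, a protease anchored to the membrane by a lipid, fell to a log2 ratio of -1.37 ± 0.22 in the fraction, against 0.40 in blood (difference -1.77 ± 0.24, limma adjusted p = 3.52e-06). Mmp8, the collagenase of neutrophil granules, had a ratio of -0.98 ± 0.16 in the fraction and was called higher in blood at 1.11 (difference -2.09 ± 0.22, limma adjusted p = 1.75e-07). In Cy5 Mmp8 read 98.5 to 516 units in the fraction, against 1122 to 2866 units in blood, and Mmp17 40.2 to 61.2 units, against 507 to 1317 units. Unlike Mmp9, both were dimmer in the fraction in Cy5 too. The median log2 ratio of these 9 genes was 0.10 in the fraction and 0.03 in blood, where most of them were well above background on no array in Cy5.

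Of 43 genes that activate, dock or control metalloproteases, 39 were tested. In the fraction 8 were higher (20.5%) and 2 lower (5.13%) against the reference, where 9.33% of all genes were higher and 10.1% lower. In blood 2 were higher (5.13%) and 0 lower, against 0.504% and 0.244% of all genes. In the difference 6 were higher (15.4%) and 2 lower (5.13%), against 12.1% and 11.8% of all genes. The median ratio was 0.23 in the fraction and 0.10 in blood, where some of these genes were well above background on no array in Cy5. Of 7 AP-1 subunits, 3 rose in the fraction and 1 fell, and Fosb (0.23), Fosl1 (0.27) and Fosl2 (0.77) were not called. Fos was at 3.25 ± 0.15 in the fraction, against 0.58 in blood, Junb at 1.90 ± 0.06, against 0.55, and Jun at 1.08 ± 0.07, against 0.07, while Jund fell to -1.08 ± 0.13, against 0.10 in blood. Of the Ets factors listed, Ets1 fell to -1.36 ± 0.14, against -0.86 in blood, with a difference of -0.51 that was not called, and Ets2 was at 0.98 ± 0.11, under 2-fold. Spp1, which encodes osteopontin, a matrix protein that metalloproteases cut, rose to 3.82 ± 0.07 in the fraction, against -0.18 in blood. Plat, tissue plasminogen activator (1.90), Furin, which removes the propeptide of Mmp14 (1.09), and Sparc, a collagen-binding protein (1.59), rose in the fraction. Il1b, interleukin 1 beta, rose in both, at 1.01 ± 0.14 in the fraction and 1.35 in blood, and Itgb3, an integrin chain of platelets and other cells, was called in blood (1.1) and not in the fraction (0.45), and its difference of -0.64 ± 0.12 did not reach 2-fold. Bsg, which encodes an inducer of metalloproteases, was lower in the fraction than in blood by the difference of the ratios (-1.17 ± 0.18).

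Of 20 genes of matrix substrates, 16 were tested, with 5 higher (31.2%) and 0 lower in the fraction against the reference, 0 called in blood, and the same counts of 5 and 0 in the difference. Of all genes, 9.33% were higher and 10.1% lower in the fraction, and 12.1% and 11.8% in the difference. The 5 genes were Nid1, a basement membrane linker (2.80 ± 0.18), Col18a1, the source of endostatin (2.41 ± 0.12), Dcn, the proteoglycan decorin (2.29 ± 0.08), Col1a1, a chain of fibrillar collagen that Mmp13 cuts (1.41 ± 0.07), and Lamb1, a laminin chain (1.29 ± 0.10). The median ratio was 0.56 in the fraction and 0.00 in blood. Of the 5 genes, Col18a1 and Lamb1 were well above background on no blood array in Cy5. Lamb1 was so in Cy3 neither, and passed the filter only through arrays of the fraction, so its difference has no measured blood ratio behind it. Several substrates that were not called were dim in blood too. The blood count of 0 and the blood median rest in part on such spots. Dcn read 176144 to 257452 units in Cy5 in the fraction, against 63.2 to 1425 units in blood. The fibroblast and hepatoma marker sums given above were higher in the same samples, and their part in these counts was not tested.

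**Figure D5:**
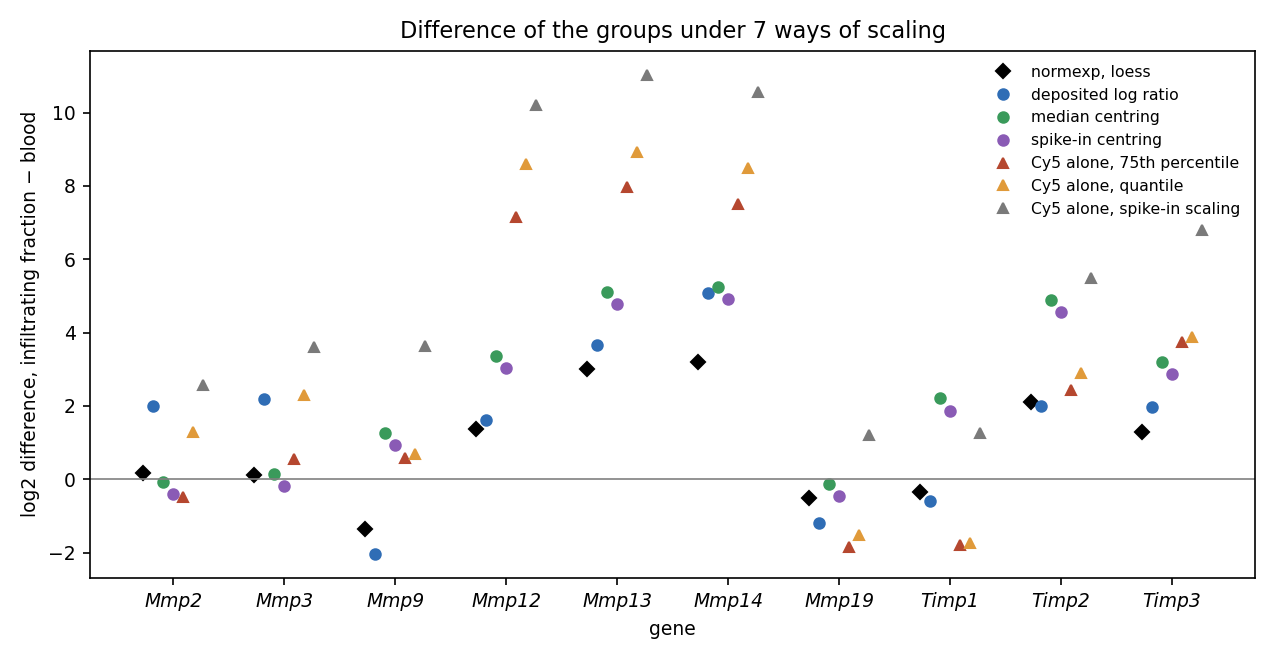
Fitted log2 difference of the infiltrating fraction minus blood of tumour-bearing mice for each gene under 7 ways of scaling, with ratios as diamonds and circles and Cy5 alone as triangles. Mmp13, Mmp14, Timp2, Timp3 and Mmp12 are above 0 under each of these 7, whereas Mmp9 is at -1.34 with loess and 3.63 in Cy5 alone with spike-in scaling, under which the median of all genes was 3.35.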

How the data were processed

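Per the labels, sample RNA was in Cy5 and reference RNA in Cy3 on each of 16 arrays. The deposited files hold the median intensity of each spot and its local background, processed intensities and a log10 ratio, made by Agilent Feature Extraction in version 10.5.1.1 per the file headers and 9.1.3.1 per the submitters' processing notes. The values that the authors deposited for the series equal these log10 ratios (largest difference 0). Mean intensities, planned as input, are not used here, and medians replaced them. Normexp (offset 50) and loess ratios were made in limma 3.58.1 under R 4.3.3. Spots of a probe were averaged, control and outlier spots (87 to 153 per array) were left out, and no spot was saturated. Probes were named by RefSeq accession (23374 of 41174), in RefSeq of GRCm38.p6. A probe was tested if well above background on at least 4 of 8 Cy5 arrays of a group or 8 of 16 Cy3 arrays, and a gene was its brightest probe. Limma (lmFit, eBayes) tested ratios against 0 and between groups, with Benjamini-Hochberg adjustment. The fits take the reference as 1 control sample, as labelled, although its Cy3 signal differed between the groups of arrays. Its own spread is left out and dye bias remains. Signals in the text are processed intensities, and the number of arrays limits the precision. The fits were tested on simulated data. Sample numbers shared by the groups were not used as pairs in the main fits.

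The 10 genes, the gene lists and the tests were chosen with earlier results of these data known. The genes named are the 10 members, called members of 3 lists, and the 2 genes nearest in pattern to each member whose difference was called. The Cy3 comparison, and Cy5 with spike-in scaling or as deposited, were added after seeing the data.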

Additional observations from a re-analysis of the deposited data

Results flagged for a closer look

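The ratio to the reference differed between the infiltrating fraction and blood in 6 of the 10 genes by limma on all 16 arrays. The differences (fraction minus blood) were 3.19 for Mmp14, 3.02 for Mmp13, 2.10 for Timp2, 1.38 for Mmp12, 1.30 for Timp3 and -1.34 for Mmp9. In blood neither channel measured Mmp12 or Mmp13. Mmp12 turned its direction with subtracted background and Mmp9 with 6 ways of scaling, as given below.

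The reference channel held signal that blood arrays did not show. Cy3 was at least 5.71-fold brighter on arrays of the fraction than on blood arrays for Mmp12 and at least 5.03-fold for Mmp13, and the cause was not tested. Among 20 groups of 8 ratios examined, none held a sample that stood apart by Dixon's test.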

How the results depend on the processing

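Leaving out each replicate in turn gave 5 to 5 genes called in the fraction against the reference, 0 to 0 in blood, 6 to 6 in the difference and 8 to 8 in Cy3. With the deposited log ratio, 8 genes were called in the fraction and 2 in blood, where subtraction with a floor also called 2. Cy5 alone with spike-in scaling called 10, all higher, where 82.1% of all genes were higher. Mmp9 reversed against the reference in the fraction to 1.54 (median centring) and 1.19 (spike-in centring). In the difference Mmp9 reversed to 1.25 and 0.92 under these centrings, and to 0.57, 0.68, 3.63 and 2.11 in Cy5 alone (75th percentile, quantile, spike-in, as deposited). Timp1 reversed to 2.20 and 1.88 under the same 2 centrings and 1.25 in Cy5 with spike-in scaling, Mmp19 to 1.20 in the last, and Mmp12 to -0.084 with subtraction. In Cy3, Mmp3 reversed to 0.27 with quantile normalization and Timp1 to 0.32 as deposited. The causes were not tested. Called genes overall moved by more than 1.5 times: in the fraction 55.7% were higher and 3.31% lower with median centring. Samples that share a number correlated weakly between the groups (-0.17 to 0.20, over 0.1 in 4 of 8, own number best in 2 of 8). Whether a number marks 1 mouse cannot be told from this, since the 2 groups are different tissues. The replicate block called 6, as without it. The signal over background limits Mmp2 and Mmp3, and Mmp12 and Mmp13 in blood.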
